A study of Mus musculus with 6 samples.

Results

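The hypoxia-inducible factor (HIF) pathway was examined in AE9a leukemia cells with and without Ddit4. The gene set held 39 mouse genes named by symbol, of 55421 genes in the count table, and all 39 were present. Of these, 10 encode HIF subunits and the enzymes that sense oxygen or mark HIF for destruction, and 29 are hypoxia targets outside glycolysis. The rule names genes by their role in the pathway and uses no measured value, but the genes were chosen with earlier results known. Those results came from these same data. Of the 39 genes, 36 had enough counts to be tested (9 sensors and factors, and 27 targets).

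AML1-ETO9a (AE9a) is a shortened AML1-ETO fusion protein that causes acute myeloid leukemia in mice. According to the study's methods, c-Kit positive bone marrow cells of Ddit4+/+ or Ddit4-/- mice were infected with an AE9a retrovirus that marks cells with GFP, and leukemia cells were taken from irradiated recipients that had fallen ill. RNA-seq compared 3 libraries labelled AE9a-Ddit4+/+ (wild type) with 3 labelled AE9a-Ddit4-/- (knockout), all of strain C57BL/6, from bone marrow and kept in IMDM with serum. Both groups carry AE9a and GFP. The study describes cells of either group as marrow cells of transplanted mice, but whether the libraries of a group go back to separate primary leukemias, and which part of the gene the knockout allele lacks, is not stated. The p values measure the spread between libraries and may not cover that between independent leukemias.

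HIF is a pair of proteins, an oxygen-labile alpha subunit (Hif1a, Epas1 or Hif3a) and a stable beta subunit (Arnt or Arnt2). With oxygen present, the prolyl hydroxylases encoded by Egln1, Egln2 and Egln3 mark the alpha subunit, the VHL ubiquitin ligase sends it to the proteasome, and the asparaginyl hydroxylase encoded by Hif1an blocks its coactivator contact. When oxygen is short, the pair binds a short DNA motif with the core ACGTG, or less often GCGTG, near target genes, among them Egln3 and Ddit4 itself, and leukemia cells of the bone marrow are known to live at low oxygen. Most of this control acts on protein, which RNA counts do not measure.

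Library totals ran from 62141558 to 72717681 counts. The targeted gene, Ddit4, stood at 228, 161 and 342 CPM (counts per 1e+06 counts of the library) in the wild-type libraries and at 84.9, 77.7 and 85.9 CPM in the knockout libraries, a change of -1.56 on the log2 scale (SE 0.28, edgeR adjusted p = 0.00635), so that its transcript was lower and not absent. RNA counts do not measure its protein, which the study reports by western blot as lacking in AE9a-Ddit4-/- leukemia cells. The libraries also differed in sex-linked transcripts, with the Y-linked gene Ddx3y at 0.0774 CPM or less in wild type and at 88.2 CPM or more in knockout. Xist, an X-linked transcript, stood at 1032, 566 and 884 CPM in wild type and at 63.2, 20.3 and 129 CPM in knockout. It was thus lower in knockout and not absent. Genotype and sex cannot be told apart, and whether the knockout libraries hold cells of both sexes was not tested. The study's methods name female C57BL/6 recipients for its AE9a model and its limiting dilution transplants. They do not give the sex of the Ddit4-/- donors. The part of recipient cells in the values given here was not tested. Mitochondrial genes took 5.03 to 7.90% of the counts in wild-type and 11.3 to 16.4% in knockout libraries. Kit, the receptor used to isolate the starting cells, was present in all 6 libraries, at 14.6 to 31.6 CPM in wild type and at 304 to 509 CPM in knockout. Runx1t1, the mouse gene for the ETO part of the fusion, stood at 6.47, 11.07 and 18.1 CPM in wild type and at 206, 141 and 69.9 CPM in knockout (log2 fold change 3.55, SE 0.52, adjusted p = 0.00295). Cd34, a stem and progenitor cell marker, went from 5.92 ± 3.79 to 519 ± 34.4 CPM, and Ptprc, the pan-leukocyte marker CD45, from 108 ± 56.5 to 578 ± 111 CPM (SD, n = 3 each). The groups thus differed in these transcripts as well as in Ddit4 and the sex-linked genes. The part of the Ddit4 allele in these levels was not tested. Marker genes of other cell types moved as well. Megakaryocyte and platelet markers were higher in 10 of 12 tested and lower in 1 (summed level 107 to 171 CPM in wild type, 2371 to 3293 CPM in knockout). Stroma and endothelium markers were higher in 6 of 11 (7.37 to 14.0 against 324 to 335 CPM, Emcn at 0 in wild type and in knockout library 3). The largest knockout levels among them were those of Pdgfrb (154 ± 13.7 CPM) and Pecam1 (137 ± 11.8 CPM, SD, n = 3 each). Col1a1, Col1a2, Col3a1, Acta2 and Lepr of that list did not pass the test. Monocyte markers were higher in 5 of 12 (131 to 213 against 189 to 485 CPM). Mast cell markers were higher in 3 of 7 (113 to 135 against 678 to 1236 CPM, Tpsb2 and Tpsab1 at 0 in wild type), B cell markers in 8 of 9 (1.15 to 5.73 against 75.1 to 153 CPM, Ms4a1 at 0 in wild type), and T and NK cell markers in 9 of 10 (10.8 to 48.7 against 84.5 to 122.0 CPM, Cd8b1, Klrb1c and Ncr1 at 0 in wild type). Erythroid markers were lower in 9 of 12 (6981 to 15105 against 401 to 867 CPM), and neutrophil markers were lower in 4 of 13 and higher in 1 (7759 to 12982 against 2117 to 5768 CPM). The part of these shifts in the values given here was not tested.

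The transcripts of the oxygen-sensing machinery changed in composition, and several hypoxia targets were higher in knockout cells. Of the 36 members tested, 15 were higher and 2 lower in AE9a-Ddit4-/- libraries when tested with the quasi-likelihood method of edgeR (adjusted p below 0.05), and 19 did not pass. Over all 18375 genes tested, 19.4% were higher and 10.7% lower, against 41.7% and 5.56% of the members. Among the sensors and factors 4 were higher (Epas1, Hif3a, Egln2 and Egln3) and Egln1 was lower, and among the targets 11 were higher and Bnip3l was lower. The median log2 fold change of the members was 0.97, against 0.04 over all genes tested. At an unadjusted p below 0.05 there were 21 of the 36 members, and 7788 of all 18375 genes tested. The 3 knockout libraries lay apart from the 3 wild-type libraries in 19 members, 17 above and 2 below, where 50.1% of all genes tested had groups that did not overlap. Among all genes tested, knockout lay above in 5132 and below in 4074. In bulk RNA, a lower or higher share of cells of some type and less or more RNA per cell cannot be told apart.

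**Figure D1:**
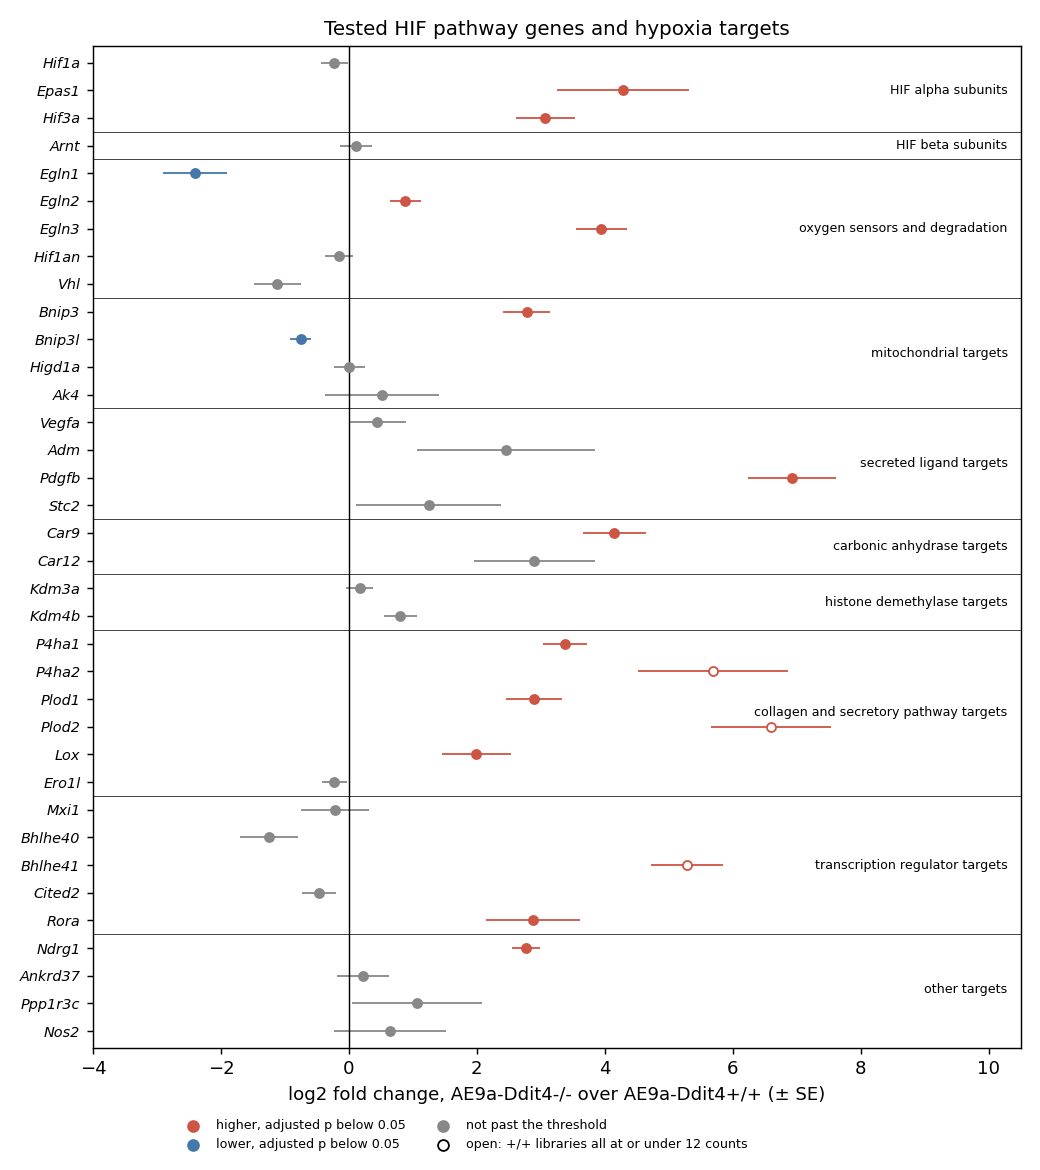
Log2 fold change of the 36 tested members, knockout over wild type, with the standard error of the edgeR fit (bars), ordered by role and with 3 libraries in each group. Red marks the 15 higher and blue the 2 lower members, grey the 19 that did not pass, and open circles the 3 genes (P4ha2, Plod2 and Bhlhe41) whose wild-type libraries all lay at or under 12 counts, so that the drawn value depends on the fit's prior count.

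The DNA motif that HIF binds was looked up in front of the members, since it is the feature by which a gene becomes a target. RefSeq start sites on GRCm38.p6 were at hand for 28 of the 39 members, with 37 windows of 250 bases upstream. The core ACGTG was found on either strand of a window of 17 of the 28 members (60.7%), against 18.5% of 27025 genes, and GCGTG in 19 of the 28 (67.9%), against 30.9%. Member windows were also richer in G and C, with a median of 62.0% against 52.4% over all 32851 windows, and 22.8% of the windows at or above 62.0% held ACGTG. The motif was present in 8 of the 10 higher members with a window, in the 1 lower member with a window (Egln1) and in 8 of the 16 that did not pass. The upstream sequences of 3 members that were higher in knockout are shown 5′ to 3′ on the gene's strand, because they carry the core in different places, with both cores in capitals wherever they stand on either strand. The palindrome in the window of Bnip3 counts on both strands, and bases inside an annotated exon of the gene were left out.
Egln3, chr12:54203875-54204124, minus strand: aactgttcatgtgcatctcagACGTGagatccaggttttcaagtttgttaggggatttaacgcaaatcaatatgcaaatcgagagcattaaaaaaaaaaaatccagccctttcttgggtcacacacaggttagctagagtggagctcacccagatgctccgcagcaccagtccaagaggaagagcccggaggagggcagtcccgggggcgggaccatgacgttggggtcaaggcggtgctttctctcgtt
Bnip3, chr7:138909520-138909756, minus strand: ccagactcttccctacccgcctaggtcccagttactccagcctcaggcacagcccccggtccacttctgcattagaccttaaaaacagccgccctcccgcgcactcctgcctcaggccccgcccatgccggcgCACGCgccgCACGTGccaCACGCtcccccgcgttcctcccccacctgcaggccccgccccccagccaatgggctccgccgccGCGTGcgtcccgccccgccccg
P4ha1, chr10:59323046-59323295, plus strand: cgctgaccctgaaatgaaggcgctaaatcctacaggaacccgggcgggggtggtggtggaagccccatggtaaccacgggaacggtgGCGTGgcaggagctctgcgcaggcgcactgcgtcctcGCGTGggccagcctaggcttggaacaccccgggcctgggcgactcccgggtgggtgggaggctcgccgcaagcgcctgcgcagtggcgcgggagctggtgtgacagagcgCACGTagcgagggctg

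The core starts 229 bases before the RefSeq start of Egln3, at 107 and 108 bases before that of Bnip3 (on either strand), and 16 bases before that of P4ha1. Egln1, which went the other way, and Car9 hold the core where an annotated first exon already begins, so only the core with 10 bases on either side is given for them.
Egln1, chr8:124949308-124949332, minus strand: gccgtggtgtACGTGcagcgcgcgc
Car9, chr4:43506998-43507022, plus strand: atttccgatgCACGTacagcccgtc
The core was thus present before members that were higher and before Egln1, which was lower, and a match says only that the letters are present.

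Among the HIF alpha subunits, Hif1a was the most abundant in each library per kb of exon, while the low-abundance Hif3a and Epas1 were higher in knockout cells. Hif1a, on chromosome 12 at 73901375 to 73947530 (GRCm38, plus strand), stood at 126, 88.9 and 96.3 CPM in wild-type and at 102, 84.2 and 80.0 CPM in knockout libraries. These ranges overlapped, with a log2 fold change of -0.23 (SE 0.21, adjusted p = 0.445). Hif3a, whose splice forms include inhibitors of the other alpha subunits, lies on chromosome 7 at 17031507 to 17062427 (minus strand) and stood at 2.09, 0.973 and 2.79 CPM in wild type and at 20.5, 15.3 and 13.4 CPM in knockout. All 3 knockout libraries were above all 3 wild-type libraries, averaging 16.4 ± 3.71 CPM against 1.95 ± 0.914 CPM (SD, n = 3 each), and the log2 fold change was 3.07 (SE 0.46, adjusted p = 0.00324). Epas1, which encodes HIF-2alpha and is best known from endothelium, went from 0.0950, 0.236 and 0 CPM to 2.71, 1.91 and 1.97 CPM. Its log2 fold change was 4.29 (SE 1.03, adjusted p = 0.0188), but only 6, 16 and 0 counts lay behind the wild-type values. Without wild-type library 1 or knockout library 1 its adjusted p was 0.0635 or 0.0589, and without wild-type library 2 its log2 fold change was 5.48. Of the stroma and endothelium markers, Pecam1 went from 3.64 ± 1.53 to 137 ± 11.8 CPM and Cdh5 from 0.423 ± 0.162 to 6.75 ± 2.66 CPM (SD, n = 3 each). Emcn was at 0 in wild type and at 0.347 CPM on average in knockout, and had too few counts to be tested. The part of endothelial cells in the Epas1 value was not tested.

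Counted per kilobase of exon (CPM per kb, which allows levels to be compared between genes), the alpha subunits added up to 17.9 ± 3.40 in wild-type and 17.9 ± 2.63 in knockout libraries (SD, n = 3 each). Within that sum the share of Hif1a was 97.5 to 98.8% in wild type and 83.0 to 85.3% in knockout. The share of Hif3a was 0.949 to 2.48% in wild type and 12.5 to 14.7% in knockout, and that of Epas1 reached 0.276% and 2.33% at most. The groups did not overlap in any of the 3 shares, which gives the smallest p that an exact two-sided permutation test of 3 against 3 libraries allows, 0.1. Arnt, the beta subunit, stood at 39.8, 45.3 and 27.8 CPM in wild type and at 47.5, 41.1 and 33.6 CPM in knockout, with a log2 fold change of 0.12 (SE 0.25, adjusted p = 0.759), and it supplied 99.5 to 100% of the beta-subunit level per kb of exon. Arnt2, its neural counterpart, had 0 to 5 counts in the wild-type and 8 to 15 counts in the knockout libraries, at or near the limit of detection of 12 counts, and was not tested.

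**Figure D2:**
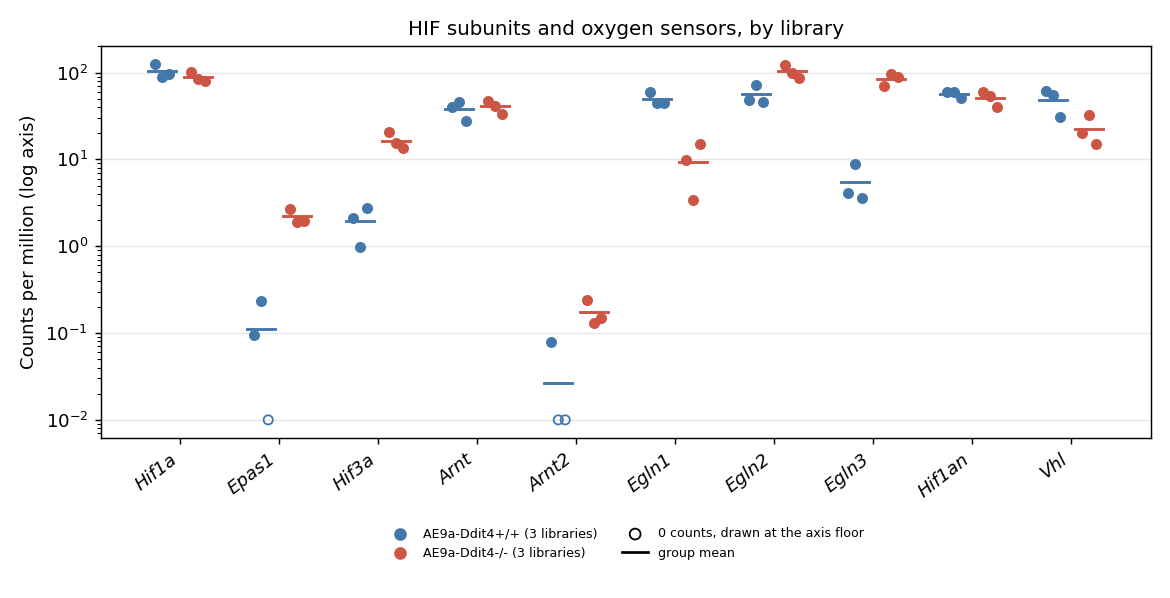
CPM of the 10 HIF subunit and oxygen sensor genes in each of the 6 libraries (log axis), wild type in blue and knockout in red, with the group mean as a line and libraries at 0 counts as open circles at the axis floor. Knockout points lie above all wild-type points for Epas1, Hif3a, Arnt2, Egln2 and Egln3 and below them for Egln1.

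Among the prolyl hydroxylases, Egln1 was lower and Egln3 higher in knockout cells, and the order of the 3 genes changed. Egln1, the main oxygen sensor for HIF in most tissues (chromosome 8, 124908587 to 124949324, minus strand), stood at 60.3, 44.6 and 44.4 CPM in wild type and at 9.83, 3.41 and 14.9 CPM in knockout. All knockout libraries were below all wild-type libraries, and Egln1 fell by 2.41 on the log2 scale (SE 0.50, adjusted p = 0.0108), a 5.30-fold lower level. Egln3, the isoform that is itself strongly induced by HIF (chromosome 12, 54178981 to 54203860, minus strand), stood at 4.13, 8.81 and 3.64 CPM in wild type and at 70.9, 95.9 and 88.5 CPM in knockout. The groups were far apart, at 5.53 ± 2.86 and 85.1 ± 12.8 CPM (SD, n = 3 each), with a log2 fold change of 3.94 (SE 0.40, adjusted p = 0.000775), which is 15.4-fold. Egln1 and Egln3 kept their call when any 1 library was left out.

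Egln2, a mainly nuclear isoform (chromosome 7, 27158658 to 27166802, minus strand), stood at 48.9, 72.7 and 46.2 CPM in wild type and at 123, 98.8 and 87.7 CPM in knockout. Its groups did not overlap, and its log2 fold change was 0.88 (SE 0.24, adjusted p = 0.0306). This call was lost without wild-type library 1 or 3 (adjusted p = 0.0979 and 0.107) and without knockout library 1 or 2 (adjusted p = 0.0929 and 0.0674). Per kb of exon, the 3 genes together stood at 35.8, 41.7 and 30.2 CPM per kb in wild type and at 73.4, 72.2 and 68.7 CPM per kb in knockout. Within this sum, the share of Egln1 was 39.2% ± 8.66 in wild type and 3.70% ± 2.37 in knockout, that of Egln3 5.60% ± 2.03 and 44.9% ± 7.43, and that of Egln2 55.2% ± 6.76 and 51.4% ± 7.54 (SD, n = 3 each). The groups did not overlap for the sum or for the shares of Egln1 and Egln3 (exact permutation p = 0.1, the smallest possible), and they overlapped for Egln2 (exact permutation p = 0.6). Egln2 had the largest share in the 3 wild-type libraries and in knockout library 1, and Egln3 stood slightly above it in knockout libraries 2 and 3.

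**Figure D3:**
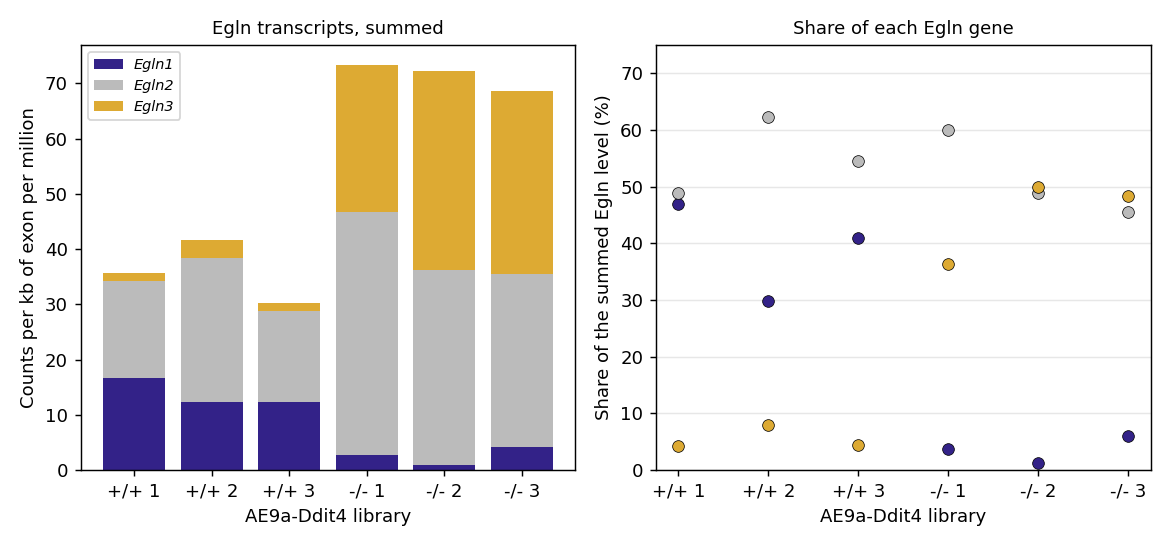
Left, level of Egln1, Egln2 and Egln3 stacked for each library, in CPM per kb of exon, where the 3 wild-type bars reach 30.2 to 41.7 and the 3 knockout bars 68.7 to 73.4. Right, the share of each gene in that sum, where Egln1 is at 29.8 to 46.9% in wild type and at 1.31 to 6.05% in knockout, and Egln3 at 4.34 to 7.94% and at 36.3 to 49.9%.

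The other oxygen-dependent steps did not pass the test, though the call for Vhl depended on the method. Hif1an stood at 59.9, 60.2 and 51.5 CPM in wild type and at 60.3, 53.9 and 40.1 CPM in knockout, and these ranges overlapped (log2 fold change -0.15, SE 0.21, adjusted p = 0.620). Vhl, the substrate receptor of the ligase that destroys hydroxylated HIF (chromosome 6, 113623959 to 113631633, plus strand), stood at 60.6, 55.6 and 30.5 CPM in wild type and at 20.1, 32.2 and 15.1 CPM in knockout. Wild-type library 3 and knockout library 2 were the ones that overlapped, and the log2 fold change of -1.12 (SE 0.37) had an adjusted p of 0.0558. With all 6 libraries it was past the threshold when scaled by library totals alone (adjusted p = 0.0354), in DESeq2 (adjusted p = 0.0275) and with counts divided by 4 (adjusted p = 0.0458). It was also past it without wild-type library 3 (-1.37, adjusted p = 0.0388) or without knockout library 2 (-1.52, adjusted p = 0.0294).

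The mitochondrial targets split into a paralog that rose and one that fell. Bnip3, a receptor for the removal of mitochondria by autophagy (chromosome 7, 138890836 to 138909519, minus strand), stood at 3.81, 7.44 and 5.20 CPM in wild type and at 45.5, 25.4 and 41.9 CPM in knockout. The groups were apart, with a log2 fold change of 2.78 (SE 0.36, adjusted p = 0.00191). Bnip3l (Nix), the related receptor that clears mitochondria from maturing red cells (chromosome 14, 66985239 to 67008877, minus strand), stood at 317, 347 and 343 CPM in wild type and at 221, 199 and 177 CPM in knockout. All knockout libraries were below all wild-type libraries, and the gene fell by 0.75 on the log2 scale (SE 0.17, adjusted p = 0.0132). Per kb of exon Bnip3 made up 2.01 to 3.53% of the pair in wild type and 17.9 to 28.7% in knockout, so that Bnip3l was still the more abundant in each library. Erythroid markers were lower in the same libraries, as given above, and their part in the Bnip3l value was not tested. The processed copy Bnip3l-ps went from 21.0 ± 2.17 to 13.0 ± 2.36 CPM (SD, n = 3 each), and how reads were split between the pair is not known. Higd1a, a modulator of the respiratory chain, had a log2 fold change of 0.01 (SE 0.25, adjusted p = 0.986), with 19.1 to 28.9 CPM in wild type and 21.4 to 28.7 CPM in knockout. Ak4, a mitochondrial adenylate kinase, ranged from 1.02 to 6.03 CPM and from 0.948 to 6.77 CPM, a spread within each group far wider than the difference between them (log2 fold change 0.52, SE 0.89). Its log2 fold change was 1.81 without wild-type library 2 and -0.11 without knockout library 2, and it passed in neither.

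Of the secreted factors, Pdgfb alone passed the test, and Vegfa, the best known hypoxia target of this kind, did not. Vegfa stood at 58.7, 19.5 and 37.2 CPM in wild type and at 79.0, 41.5 and 36.6 CPM in knockout, and the groups overlapped (log2 fold change 0.45, SE 0.45, adjusted p = 0.493). Pdgfb, a growth factor made by endothelium and megakaryocytes (chromosome 15, 79995874 to 80014977, minus strand), stood at 0.222, 0.0884 and 0.0619 CPM in wild type and at 12.5, 23.8 and 9.57 CPM in knockout. Its log2 fold change was 6.93 (SE 0.69, adjusted p = 0.000749), with only 14, 6 and 4 counts behind the wild-type values, and it was 7.63 without wild-type library 1. The megakaryocyte marker Itga2b went from 116 ± 28.9 to 2021 ± 279 CPM in the same libraries (SD, n = 3 each). Of the 12 tested markers of its list 10 were higher, and Gp1ba did not pass. Vwf of that list was lower, from 7.17 ± 2.66 to 1.71 ± 0.944 CPM (log2 fold change -2.06, edgeR adjusted p = 0.0327). The part of such cells in the Pdgfb value was not tested. Adm, the vasodilator adrenomedullin, had 17, 0 and 0 counts in wild type and 24 to 37 counts in knockout (adjusted p = 0.223). Adm passed without wild-type library 1 (adjusted p = 0.0148), which held its 17 wild-type counts. Stc2 had 0 to 16 and 9 to 22 counts (adjusted p = 0.444). Stc1, also a stanniocalcin, had 0 counts in all 6 libraries and was not tested.

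Both carbonic anhydrases, which set pH at the outer cell surface, were low in wild type, and Car12 lay at the limit of detection in wild-type libraries 2 and 3. Car9, one of the most widely used markers of hypoxic tissue (chromosome 4, 43506966 to 43513729, plus strand), stood at 0.507, 0.707 and 0.959 CPM in wild type and at 18.7, 12.03 and 7.99 CPM in knockout. The groups were apart, with a log2 fold change of 4.15 (SE 0.49, adjusted p = 0.00128). An antisense gene, Gm12454, shares 214 bases of exon with Car9 and went from 0.702 ± 0.358 to 4.71 ± 1.75 CPM (SD, n = 3 each, log2 fold change 2.74, adjusted p = 0.0102), and without knowing whether counting used strand, reads in the shared bases cannot be assigned. Car12 stood at 0.522, 0.118 and 0.139 CPM in wild type and at 0.369, 2.52 and 2.95 CPM in knockout. Its wild-type values rest on 33, 8 and 9 counts. Knockout library 1 lay within the wild-type range, and the log2 fold change of 2.90 (SE 0.95) had an adjusted p of 0.0540. It passed the test without that library (3.40, adjusted p = 0.0312) or without wild-type library 1 (3.90, adjusted p = 0.0446), and in DESeq2 with all 6 libraries (adjusted p = 0.00448).

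Neither histone demethylase passed the test. Kdm3a, which removes methyl groups from lysine on histone H3, was abundant at 120 to 141 CPM in wild type and 115 to 183 CPM in knockout (log2 fold change 0.17, SE 0.21, adjusted p = 0.580). Kdm4b stood at 31.9, 39.2 and 35.9 CPM in wild type and at 83.5, 57.5 and 45.8 CPM in knockout. Its groups did not overlap, and its log2 fold change of 0.80 (SE 0.26) had an adjusted p of 0.0509, just above the threshold. It passed in 5 alternatives with all 6 libraries (adjusted p = 0.0451 with RLE size factors, 0.0452 without mitochondrial genes, 0.0331 in DESeq2, 0.0413 with a stricter filter on low counts and 0.0425 with counts divided by 4), and without knockout library 3 (0.93, adjusted p = 0.0406).

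Of the 6 collagen and secretory pathway targets tested, 5 were higher (83.3%, against 19.4% of all genes tested). These 5 are enzymes of collagen maturation, and Ero1l of the secretory pathway did not pass. P4ha1, the catalytic subunit of collagen prolyl 4-hydroxylase (chromosome 10, 59323296 to 59373304, plus strand), stood at 5.13, 6.82 and 3.16 CPM in wild type and at 64.2, 48.2 and 45.0 CPM in knockout. The groups were far apart, with a log2 fold change of 3.38 (SE 0.35, adjusted p = 0.000824), or 10.4-fold. P4ha2, the alternative catalytic subunit, had 0, 4 and 0 counts in wild type and stood at 1.83, 0.840 and 0.761 CPM in knockout, at least 6.21-fold higher when set against the limit of detection (adjusted p = 0.0102). Plod1, a lysyl hydroxylase (chromosome 4, 147909753 to 147936767, minus strand), stood at 5.54, 5.76 and 2.06 CPM in wild type and at 28.9, 40.4 and 29.8 CPM in knockout. It did not overlap between groups either, with a log2 fold change of 2.89 (SE 0.43, adjusted p = 0.00317). Plod2, the isoform that hydroxylates the ends of collagen chains, had 6, 4 and 0 counts in wild type and stood at 3.94, 3.82 and 7.63 CPM in knockout, at least 27.8-fold higher (adjusted p = 0.00264).

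Per kb of exon, P4ha1 supplied 98.2 to 100% of the P4ha level over the 6 libraries, and Plod2 rose from at most 2.11% to 10.6 to 24.3% of the Plod level. Lox, the oxidase that cross-links collagen, stood at 0.253, 0.560 and 0.340 CPM in wild type and at 1.93, 1.05 and 1.63 CPM in knockout. Its log2 fold change of 1.99 (SE 0.54, adjusted p = 0.0277) lost its call without wild-type library 1 or 3 (adjusted p = 0.0801 and 0.0837) and without knockout library 1 or 3 (adjusted p = 0.0892 and 0.0784). Loxl2, a further oxidase of this family, had 4 to 24 counts in wild type and 1 to 12 in knockout and was not tested. Ero1l, which supplies disulfide bonds in the endoplasmic reticulum, was abundant at 88.8 to 121 CPM in wild type and 77.1 to 101 CPM in knockout, overlapping between groups (log2 fold change -0.23, SE 0.20, adjusted p = 0.420). The collagen gene Col1a1 itself, among the stroma markers, stood at 2.76 CPM on average in wild type and at 5.35 CPM in knockout and did not pass the test. Of the stroma and endothelium markers, 6 of 11 were higher, as given above, and their part in the levels of these enzymes was not tested.

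**Figure D4:**
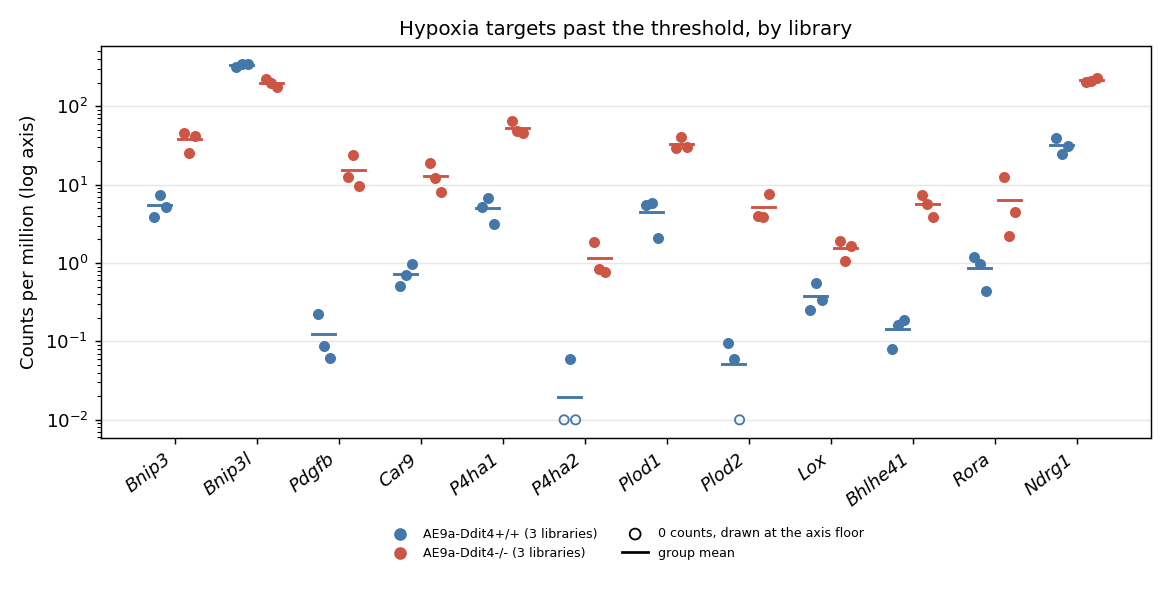
CPM of the 12 hypoxia targets past the threshold in each of the 6 libraries (log axis), wild type in blue and knockout in red, with the group mean as a line and libraries at 0 counts as open circles at the axis floor. In Bnip3l the knockout points lie below the wild-type points, and in the other 11 genes they lie above them.

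Among the transcription regulators, Bhlhe41 and Rora were higher and no member was lower past the threshold. Bhlhe41, a repressor of the molecular clock (chromosome 6, 145858243 to 145865558, minus strand), had 5, 11 and 12 counts in wild type and stood at 7.32, 5.68 and 3.90 CPM in knockout, at least 30.6-fold higher (adjusted p = 0.000849). Its close relative Bhlhe40 stood at 478, 133 and 275 CPM in wild type and at 157, 127 and 87.8 CPM in knockout, with overlapping groups and a log2 fold change of -1.25 (SE 0.45, adjusted p = 0.0731). Without wild-type library 2 it was -1.60 and passed the test (adjusted p = 0.013), and it also passed in DESeq2 (adjusted p = 0.0321). Per kb of exon Bhlhe40 was the more abundant in each library, with Bhlhe41 at 0.0854% of the pair or less in wild type and at 3.02 to 3.16% in knockout.

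Rora, a nuclear receptor of the clock (chromosome 9, 68653786 to 69388246, plus strand), stood at 1.20, 0.958 and 0.433 CPM in wild type and at 12.3, 2.24 and 4.53 CPM in knockout. Knockout library 1 was 5.51 times knockout library 2, the log2 fold change was 2.88 (SE 0.74, adjusted p = 0.0237), and without knockout library 1 it was 1.97 (adjusted p = 0.0761). The call was also lost without wild-type library 1 or 3 (adjusted p = 0.0504 and 0.0734). Mxi1, an antagonist of Myc, stood at 169, 52.4 and 49.9 CPM in wild type and at 43.1, 96.3 and 93.9 CPM in knockout, so that 1 library of each group stood apart from the other two (log2 fold change -0.22, SE 0.53, adjusted p = 0.785). Its sign rested on these libraries, at 0.60 on the log2 scale without wild-type library 1 and 0.08 without knockout library 1, and it passed in neither. Cited2, which competes with HIF for its coactivators, stood at 124 to 197 CPM in wild type and at 94.8 to 155 CPM in knockout (log2 fold change -0.47, SE 0.27, adjusted p = 0.221).

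Of the remaining targets, Ndrg1 was higher. Ndrg1, a stress-response gene that also serves as a hypoxia marker (chromosome 15, 66929318 to 66969640, minus strand), stood at 38.9, 24.2 and 31.4 CPM in wild type and at 206, 210.2 and 228 CPM in knockout. The knockout libraries lay close together, at 215 ± 11.8 CPM against 31.5 ± 7.33 CPM (SD, n = 3 each), and the log2 fold change of 2.77 (SE 0.22, adjusted p = 0.000378) had the smallest adjusted p of the members. Ndrg1 and Pdgfb lie on chromosome 15, where the median log2 fold change of 344 genes with a mean above 16 CPM was 0.39, against -0.17 over all 8210 such genes, and the part of this shift in their values was not tested. Ankrd37, which encodes an ankyrin-repeat protein, stood at 3.05 to 4.49 CPM in wild type and at 2.96 to 5.73 CPM in knockout (log2 fold change 0.22, adjusted p = 0.713). Its exons share 57 bases with those of Ufsp2 on the other strand, which was lower (log2 fold change -0.87, adjusted p = 0.0462). Ppp1r3c, a regulator of glycogen storage, had 8 to 21 counts in wild type and 5 to 64 in knockout (adjusted p = 0.467), and Nos2, the inducible nitric oxide synthase, had 5 to 60 and 24 to 54 counts (adjusted p = 0.611).

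**Figure D5:**
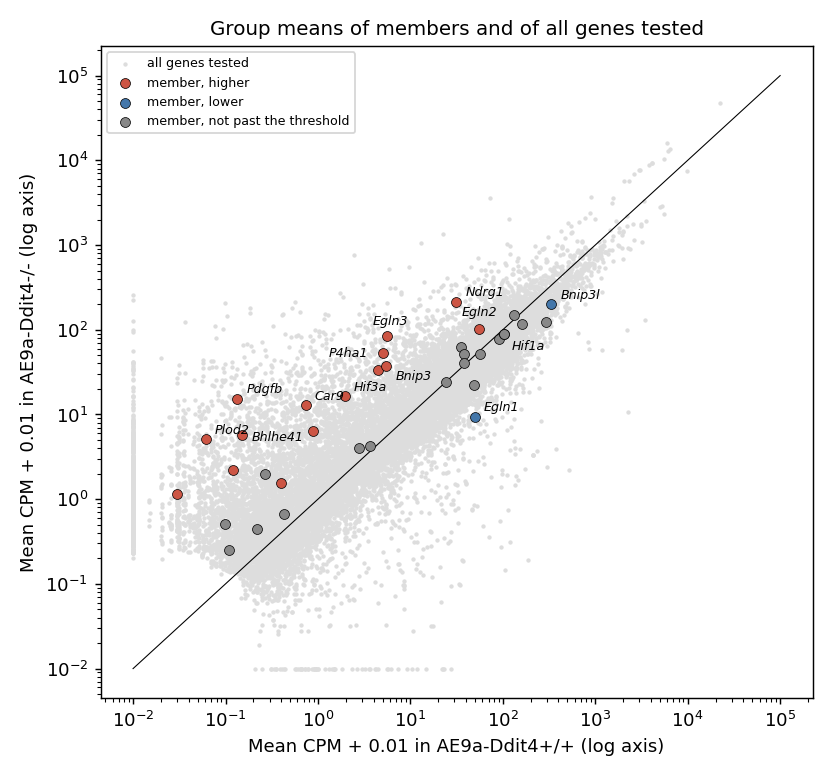
Mean CPM plus 0.01 in the 3 knockout libraries against that in the 3 wild-type libraries (log axes), with all 18375 genes tested in light grey and the 36 tested members in colour. The diagonal marks equal levels and the 15 higher members lie above it and the 2 lower ones (Egln1 and Bnip3l) below it.

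Other genes of the pathway were read from the same fit. Of 17 genes for HIF partners and turnover, 2 were higher and 2 lower, 11.8% each, with a median log2 fold change of -0.23. Over all genes tested, 19.4% were higher and 10.7% lower, with a median of 0.04. The lower ones were Usp33, a deubiquitinase that binds the VHL protein (73.0 ± 4.02 CPM in wild type, 15.0 ± 1.69 CPM in knockout, log2 fold change -2.28, SE 0.20, adjusted p = 0.000457), and Elob, a subunit of the VHL complex (log2 fold change -0.81, SE 0.21, adjusted p = 0.0263). The higher ones were Rbx1, the RING subunit of that complex (log2 fold change 0.88, SE 0.17, adjusted p = 0.00858), and Ep300, a HIF coactivator (log2 fold change 0.83, SE 0.20, adjusted p = 0.0178). Within the VHL complex, then, Elob and Rbx1 differed between groups in opposite directions. Rbx1 and Ep300 lie on chromosome 15, like Ndrg1 and Pdgfb, where the median log2 fold change of genes above 16 CPM was 0.39. Over all such genes it was -0.17, and the part of this shift in the Rbx1 and Ep300 values was not tested.

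Of 30 further hypoxia targets outside glycolysis, 12 were higher and 2 lower, 40.0% and 6.67%, with a median log2 fold change of 0.94. One of the lower genes was Ddit4 itself. The 5 genes past the threshold with the largest fitted values were Tek, the angiopoietin receptor, at least 133-fold higher, Ret, a receptor tyrosine kinase with 0 counts in wild type and so only a bound, at least 3.39-fold higher, Rcor2, a corepressor (log2 fold change 6.90, SE 0.81, adjusted p = 0.0013), Kdr, a VEGF receptor (5.65, SE 0.90, adjusted p = 0.0039), and Vldlr, a lipoprotein receptor (5.48, SE 0.76, adjusted p = 0.0024). Kdr is also among the endothelial markers. Glycolytic targets were kept for comparison, with 24 tested entries for 23 genes, since Aldoa has 2 entries. Of these entries 6 were higher and 2 lower, 25.0% and 8.33%, with a median log2 fold change of -0.03. Pdk1, which keeps pyruvate out of the mitochondria, went from 18.9 ± 9.65 to 91.1 ± 19.0 CPM (log2 fold change 2.27, SE 0.38, adjusted p = 0.00468), while its relative Pdk3 went from 120 ± 9.04 to 48.9 ± 4.28 CPM (-1.29, SE 0.17, adjusted p = 0.00199). The lactate exporter Slc16a3 (1.93, SE 0.28, adjusted p = 0.00302) and the glucose transporter Slc2a1 (1.88, SE 0.24, adjusted p = 0.00169) were higher, and Eno2, an enolase, was at least 13.7-fold higher.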

How the data were processed

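RNA-seq had been performed on 3 AE9a-Ddit4+/+ and 3 AE9a-Ddit4-/- libraries, with groups and replicate numbers taken from the sample titles. The authors deposited 1 table of counts per gene, as whole numbers that were not scaled. The submitters' processing notes name GRCm38 (mm10). The aligner, the counting tool, the annotation and the use of strand are not given in the sources used here, and the library kit differs between the labels (mRNA) and the methods (rRNA-depleted, directional). Low counts piled up at multiples of 4 (1.41 to 1.62 times as frequent as the even numbers between them), so the limit of detection was set at 12 counts, which is 0.163 to 0.198 CPM and covers counting error only.

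Positions and exon lengths came from GENCODE M21. Genes were tested in R 4.3.3 with edgeR 4.0.16 (filterByExpr, TMM factors of 0.921 to 1.05, robust glmQLFit and glmQLFTest, genotype as the only term), and p values were adjusted by the Benjamini-Hochberg method over all 18375 genes. CPM use TMM-scaled totals, and SE is the absolute log2 fold change over the square root of F. Where the wild-type libraries all lay at or under 12 counts, the mean knockout CPM over the mean wild-type limit is given as a lower bound, and no list median moved when such genes were set to it. Measures over 3 against 3 libraries were compared by a two-sided exact permutation test, with 0.1 as the smallest p. The edgeR step was tested on simulated data. All members are named, with full statistics for those past the threshold and for the sensors and factors, along with Ddit4 and at most 5 genes of each pathway list, those past the threshold with the largest change. Individual marker, antisense and copy genes (Ddx3y, Kit, Runx1t1, Cd34, Ptprc, Pecam1, Itga2b, Col1a1, Emcn, Gm12454, Bnip3l-ps and others) were named beside results after their values were seen. The members and lists were chosen with earlier results of these data known.

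The alternatives were DESeq2 1.42.0, other size factors and filters, counts divided by 4, a replicate block and leaving out each library.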

Additional observations from a re-analysis of the deposited data

How the results depend on the processing

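Of the 17 members past the threshold, 12 kept their direction and their call under every one of the 14 alternatives in which they could be fitted. Requiring at least 10 counts in every library left Bhlhe41, Epas1, P4ha2, Pdgfb and Plod2 out of the fit. Each of them had fewer than 10 counts in a wild-type library, and the filter drops such genes whatever their knockout level. It gave 2341 higher genes in all (3560 otherwise), 6 further hypoxia targets higher (12 otherwise) and 21 cell type markers higher (42 otherwise). DESeq2's Wald test called 4 members lower (2 otherwise) and 7018 genes in all (5535 otherwise), and scaling by library totals alone gave 4 HIF partners lower (2 otherwise).

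Samples with the same replicate number did not deviate together (correlations of -0.165, -0.194 and -0.0495, against -0.0278 to 0.179 for other numbers). With 3 libraries in each group, such values cannot decide whether the numbers mark libraries prepared together. With a replicate block 2964 genes passed, 2177 higher and 787 lower (1975 otherwise), the lower members fell to 1, the HIF partners to 1 higher and 1 lower, the glycolytic targets to 1 lower and the markers to 9 lower (14 otherwise), and Bnip3l, Egln2, Epas1, Lox and Rora lost their call.

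Leaving out each library in turn gave 1089 to 2078 lower genes. There were 1168 without wild-type library 1, 1089 without wild-type library 3 and 1157 without knockout library 1. The HIF partners ranged from 1 to 3 higher and 1 to 5 lower (5 without wild-type library 2), the further targets from 1 to 4 lower (4 without wild-type library 2), the glycolytic targets from 1 to 3 lower (3 without wild-type library 2), and the markers from 9 to 14 lower (9 without wild-type library 1 or knockout library 1). Signs turned, with no call, in 7 members. Arnt's log2 fold change ran from -0.0654 to 0.27, and its sign turned without wild-type library 3 (-0.0654) and without knockout library 1 (-0.00602). Higd1a turned with library totals alone (-0.0584), with no low-count filter (-0.0279), without wild-type library 2 (-0.138) and without knockout library 2 (-0.173, up to 0.15 without others). Mxi1 turned with a replicate block (0.00784), without wild-type library 1 (0.603) and without knockout library 1 (0.0766), and was -0.514 at the lowest. Ak4 ran from -0.114 to 1.81 and Ppp1r3c from -0.728 to 1.56, both turning without knockout library 2. Kdm3a ran from -0.00948 to 0.277 and Ankrd37 from -0.0646 to 0.405, both turning without knockout library 1. Nos2 reached 1.93 without wild-type library 3 and Stc2 2.86 without wild-type library 2, with no call. Vhl, Kdm4b, Bhlhe40 and Car12 gained a call in DESeq2. Without the numbers of fragments behind the counts, depth limits the 5 genes named first and the lowest targets. Beyond fewer genes or samples in a fit, the cause of these shifts was not tested.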
